A study of Rattus norvegicus with 4 samples.

Results

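Integrins and cell adhesion molecules of the immunoglobulin family were followed in a pair of rat prostate tumour lines that differ in their spread. The set holds 9 of the 4736 genes named on the array, the integrin chains Itga1, Itga7, Itgb1, Itgb4 and Itgb7 and the immunoglobulin family members Icam1, Vcam1, Ncam1 and Alcam. Every probe set that the platform annotation ties to one of these symbols alone was taken, which gave 17 of the 8799 probe sets of the array, 8 for integrins and 9 for immunoglobulin family genes. Of the genes, 2 were read by 3 probe sets, 4 by 2 and 3 by 1. The set was chosen by gene family, with earlier results from the same arrays known.

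Total RNA was hybridised to 4 Affymetrix oligonucleotide arrays, 2 of the Mat-Lylu line and 2 of the G line, numbered 0 and 1 within each line. Both derive from the Dunning R3327 tumour of the rat prostate; the submitters call Mat-Lylu highly metastatic and G non-metastatic, and G served as the control. No drug, transgene or other treatment is named for either line. Each class of spread is represented by 1 cell line, so the line and its metastatic behaviour cannot be told apart, and the labels do not say whether the duplicates came from separate cultures. The p-values therefore reflect array-to-array spread, which may be technical.

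Integrins are receptors made of an alpha and a beta chain that span the cell membrane, bind matrix proteins or receptors on other cells outside, and couple to actin through adaptor proteins inside. Itgb1 is the partner of many alpha chains, among them Itga1, which forms a collagen and laminin receptor, and Itga7, which forms a laminin receptor known best from muscle. Itgb4 pairs with Itga6 in hemidesmosomes of epithelia, and Itgb7 serves lymphocytes in homing to the gut. Icam1 and Vcam1 are counter-receptors for leukocyte integrins and are induced in inflamed endothelium by NF-kB, a transcription factor of inflammation. Ncam1 and Alcam bind their own kind on neighbouring cells, and Alcam also binds Cd6 on T cells.

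Values are MAS5 signals, in linear intensity units per probe set. Array medians ran from 3001 to 3016 in Mat-Lylu and from 3051 to 3160 in G, and G array 1 had the top signal at 64036, against 45582 to 47120 on the other arrays. The background level of an array was taken as the 95th percentile of 23 control probe sets for bacterial, yeast and mouse sequences, and ran from 1891 to 2311. Where both arrays of a line lay under it, the signal of that line is only a bound. Differences are on the scale log2(signal + 16), Mat-Lylu minus G, with the standard error (SE) and adjusted p of one limma fit over the 6555 probe sets left after dropping array controls and the dimmest 25%. The number of arrays limits their precision.

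Upstream sequences are shown for the 4 genes with a called probe set for which a sequence was held, Vcam1, Icam1, Itgb1 and Alcam. The RefSeq table (build GRCr8) held upstream sequence for 6 of the 9 genes; Itga7, Itgb4 and Ncam1 were not among them. Each sequence below is the 250 bases before the annotated gene start, on the gene's strand, with searched motifs in capitals. The motifs were the NF-kB consensus, the related runs GGGTTTCC and GGAAATTCC, the TATA box TATAAA and the GC box GGGCGG, on both strands; none of the motifs overlapped another kind in these 4 sequences.
Vcam1 (chr2:206742784-206743033, minus strand): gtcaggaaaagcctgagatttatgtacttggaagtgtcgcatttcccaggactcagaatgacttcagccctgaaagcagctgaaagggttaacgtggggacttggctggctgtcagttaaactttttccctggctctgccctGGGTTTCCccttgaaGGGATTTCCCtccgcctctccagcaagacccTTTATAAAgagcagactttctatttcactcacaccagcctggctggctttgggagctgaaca
Icam1 (chr8:27829595-27829844, plus strand): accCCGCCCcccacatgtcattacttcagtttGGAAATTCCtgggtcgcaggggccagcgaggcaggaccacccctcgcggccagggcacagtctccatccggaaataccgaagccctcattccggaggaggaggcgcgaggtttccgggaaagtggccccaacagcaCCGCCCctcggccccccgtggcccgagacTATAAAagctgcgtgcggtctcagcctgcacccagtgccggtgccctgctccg
Itgb1 (chr19:73602027-73602276, plus strand): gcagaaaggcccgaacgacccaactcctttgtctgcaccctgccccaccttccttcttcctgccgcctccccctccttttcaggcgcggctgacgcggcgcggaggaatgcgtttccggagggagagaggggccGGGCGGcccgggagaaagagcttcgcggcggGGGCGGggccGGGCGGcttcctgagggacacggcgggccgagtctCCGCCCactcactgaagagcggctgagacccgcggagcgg
Alcam (chr11:61805207-61805456, plus strand): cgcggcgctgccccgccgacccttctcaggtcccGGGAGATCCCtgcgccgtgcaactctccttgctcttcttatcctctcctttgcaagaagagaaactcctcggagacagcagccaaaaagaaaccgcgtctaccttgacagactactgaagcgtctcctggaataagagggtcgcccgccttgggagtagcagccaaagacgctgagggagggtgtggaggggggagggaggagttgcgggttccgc

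The Vcam1 sequence held GGGTTTCC from 108 to 101 bases and the NF-kB consensus match GGGATTTCCC from 93 to 84 bases before the start, with TATAAA from 60 to 55. The TATAAA run was also read on the opposite strand from 62 to 57, so the capitals there cover both. Icam1 held GGAAATTCC from 218 to 210 and TATAAA from 53 to 48 bases before the start, with 2 GC boxes. Itgb1 held 4 GC boxes and no TATAAA, at 71.2% G and C, against 66% in Icam1, 60.8% in Alcam and 50.4% in Vcam1 and a median of 52% over 27457 upstream sequences. Alcam held an NF-kB consensus match, GGGAGATCCC, from 216 to 207 bases. Of all upstream sequences, 6.41% held the NF-kB consensus, 1.27% GGGTTTCC, 0.288% GGAAATTCC, 13.1% TATAAA and 32.4% GGGCGG. GGGTTTCC and GGAAATTCC were single fixed strings chosen by hand. Their low shares therefore do not show that the matches in Vcam1 and Icam1 are unusual. The NF-kB consensus had a match in Vcam1 and in Alcam, and the part of NF-kB in the signals of these genes was not tested. A match is a run of letters and not evidence of binding.

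Signals of the integrin chains Itga7 and Itgb1 and of 1 of the 3 probe sets of Alcam were higher in Mat-Lylu than in G. Signals were lower for Vcam1 and for 1 of the 2 probe sets of Icam1. Itga1, Itgb4, Itgb7 and Ncam1 did not pass the test. Of the 17 probe sets, 16 were tested: 5 rose, 3 fell and 8 did not pass. Of the 16 tested, 4 were called at 2-fold or more, counting the bound where a line lay under background. Among them was Vcam1 on M84488_at, by a bound of 2.0-fold. The called share of the tested members was 50%, against 34.1% of all 6555 probe sets tested; 13.9% of all rose and 20.3% fell, and 7.57% were called at 2-fold or more by the same count. The arrays of the lines did not overlap for 10 of the 16 tested members (62.5%), against 67.7% of all tested probe sets. The median log2 difference was 0.06 over the tested members and -0.03 over all tested probe sets.

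**Figure D1:**
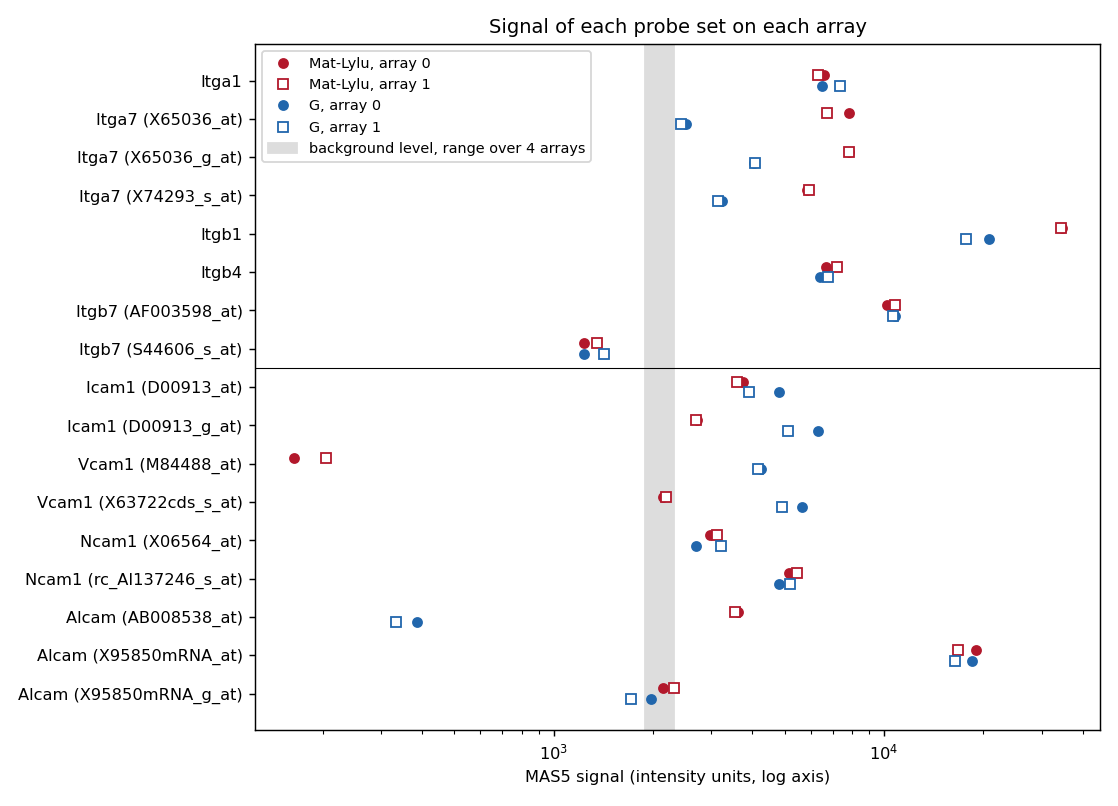
MAS5 signal (log axis) of all 17 probe sets, with Mat-Lylu arrays in red above G arrays in blue; circles are array 0, squares array 1, and the grey band spans the background levels of the 4 arrays, 1891 to 2311. The Mat-Lylu values of Vcam1 (M84488_at) and the G values of Alcam (AB008538_at) lie far left of the band.

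Tested probe sets had to reach a mean signal of 1525 over the 4 arrays. For 2 of the members, Vcam1 read by M84488_at and Alcam read by AB008538_at, the arrays of 1 line averaged under that value, so they entered the test through the line in which they were bright and had to differ. They are given as single genes, and the counts above are no support for the set.

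The alpha chain Itga7 was higher in Mat-Lylu on all 3 of its probe sets. On X65036_at the signals were 7814 and 6702 in Mat-Lylu arrays and 2520 and 2433 in G arrays. Every Mat-Lylu array lay above both G arrays, and all of them were above background. The log2 difference was 1.54 (SE 0.10, adjusted p = 1.1e-05), a 2.91-fold rise.

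The partner set X65036_g_at, made to the same sequence record, read 7832 and 7852 in Mat-Lylu and 4034 and 4058 in G, a 1.93-fold rise (log2 difference 0.95, SE 0.08, adjusted p = 5.1e-05). X74293_s_at, made to another record, read 5855 and 5934 in Mat-Lylu and 3232 and 3153 in G, 1.84-fold higher in Mat-Lylu (log2 difference 0.88, SE 0.08, adjusted p = 8.1e-05). The first 2 probe sets share their source sequence, so they are not separate evidence, and probe sets ending in _g_at or _s_at can also pick up related transcripts. The direction was the same on all 3, and the size on X65036_at was larger, with a 95% interval of 1.31 to 1.77 against 0.77 to 1.13 and 0.70 to 1.06 on the log2 scale.

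Since Itga7 is best known from muscle, skeletal muscle markers were read beside it. Of 8 such markers on the array, 6 were tested and 1 passed, the myosin gene Myh4. Myh4 was higher in Mat-Lylu (log2 difference 0.43) but under background on all 4 arrays, so this size has no exact meaning. Creatine kinase (Ckm) and myogenin (Myog), above background on all 4 arrays, had log2 differences of -0.28 and -0.20 with unadjusted p = 0.021 and 0.049 in limma, and neither passed after adjustment. The signals of the 8 markers summed to 18753 and 19686 in Mat-Lylu and to 19921 and 21333 in G, and Myod1, the master regulator of muscle fate, was under background in both lines at 1744 and 2019 in Mat-Lylu and 1869 and 1844 in G. Their part in the Itga7 values was not tested. The labels of all 4 arrays name a cell line and no other cell type. Bulk RNA does not tell the share of cells with a transcript from its amount per cell.

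The beta chain Itgb1, the shared partner of Itga7 and Itga1, was read by 1 probe set, at 34610 and 34418 in Mat-Lylu and 20730 and 17689 in G. The Mat-Lylu arrays were nearly equal and both lay above the G arrays, which differed from each other by 0.23 on the log2 scale. Itgb1 was 1.80-fold higher in Mat-Lylu (log2 difference 0.85, SE 0.11, adjusted p = 0.00074). Its values were below the top of the signal scale on every array.

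Itga1, the alpha chain of the collagen receptor, read 6572 and 6334 in Mat-Lylu and 6473 and 7380 in G. The arrays of the lines overlapped, and the log2 difference of -0.10 did not pass (SE 0.09, 95% interval -0.32 to 0.12, adjusted p = 0.47). Within arrays, the log2 difference of Itga1 minus that of Itgb1 was -0.95, and that of Itga7 on X65036_at minus that of Itgb1 was 0.69. The arrays of the lines did not overlap for either ratio. With 2 arrays against 2, an exact 2-sided permutation test gives p = 0.333 for each, the smallest it can give.

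Itgb4, the hemidesmosome chain, read 6696 and 7220 in Mat-Lylu and 6387 and 6784 in G, with overlapping arrays. Its log2 difference of 0.08 did not pass (SE 0.09, 95% interval -0.12 to 0.28, adjusted p = 0.53).

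Itgb7, the chain of gut-homing lymphocytes, was read by a bright and a dim probe set. AF003598_at gave 10182 and 10820 in Mat-Lylu and 10821 and 10686 in G, with a log2 difference of -0.03 (SE 0.09, 95% interval -0.23 to 0.16, adjusted p = 0.80). S44606_s_at gave 1232 and 1353 in Mat-Lylu and 1237 and 1423 in G; it was under background on all 4 arrays and was left out of the test by the filter on dim probe sets. Neither probe set separated the lines, and only the brighter one gave a measured level.

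Leukocyte markers were read beside Itgb7. Of 12 on the array, 9 were above background on all 4 arrays, and the 12 signals summed to 42400 and 45246 in Mat-Lylu and to 43742 and 43428 in G. Of the 9 tested, 0 passed in limma, and 0 had an unadjusted p under 0.05. Ptprc, the pan-leukocyte phosphatase, read 3382 and 3371 in Mat-Lylu and 3285 and 3555 in G, while Itgam and Lyz2 were under background on every array. The part of such cells, or of unspecific signal, in the Itgb7 value was not tested.

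**Figure D2:**
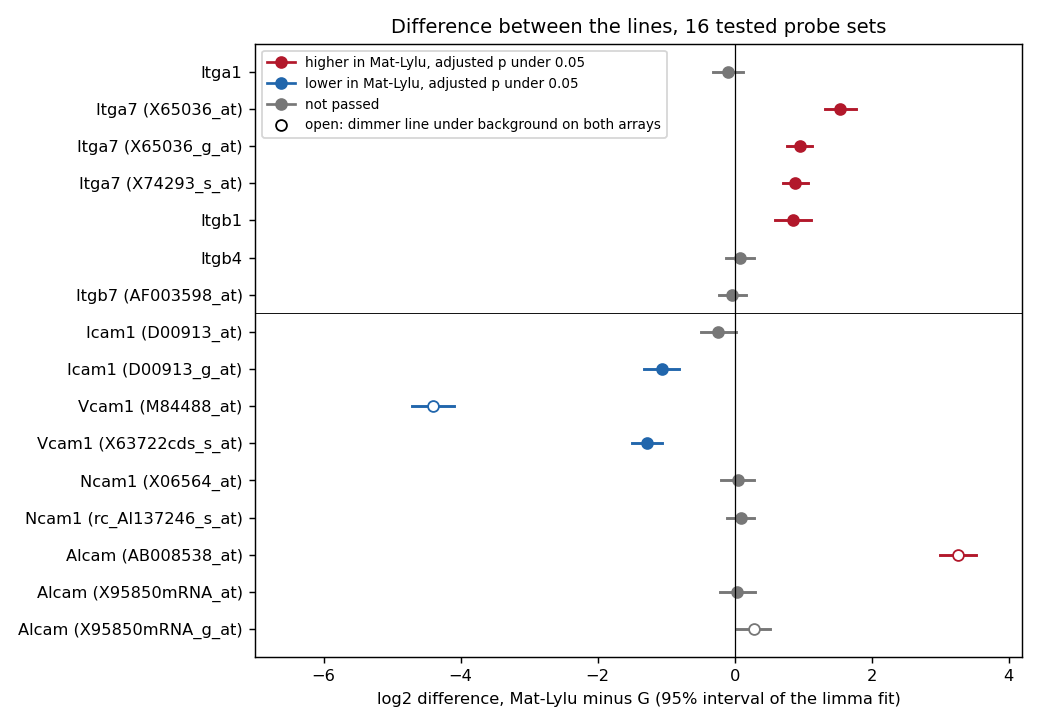
Log2 difference, Mat-Lylu minus G, of the 16 tested probe sets with the 95% interval of the limma fit. Red rose, blue fell, grey did not pass, and open circles had the dimmer line under background on both arrays. Open circles show the fitted difference and not the bound, so their size has no exact meaning. Itga7 lies right of 0 on 3 probe sets, Vcam1 left of 0 on 2, and Alcam has 1 of 3 probe sets far to the right.

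Vcam1, the counter-receptor of the Itga4 and Itgb1 pair, was lower in Mat-Lylu on both of its probe sets. M84488_at read 163 and 204 in Mat-Lylu and 4254 and 4156 in G. Both Mat-Lylu arrays were far under background and both G arrays above it, so the fall was at least 2.0-fold, with each dim signal replaced by the background level of its array (log2 difference -4.41, SE 0.13, adjusted p = 1.9e-07, whose fitted size has no exact meaning).

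X63722cds_s_at read 2137 and 2196 in Mat-Lylu and 5637 and 4916 in G, with no overlap. Of the Mat-Lylu arrays, 1 was above its background level and 1 below. The fall was 2.42-fold (log2 difference -1.27, SE 0.09, adjusted p = 2.8e-05). As an _s_at probe set, X63722cds_s_at can also pick up related transcripts. The fitted log2 difference on M84488_at minus that on X63722cds_s_at was -3.13, an amount that rests on signals under background.

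Icam1, the counter-receptor of leukocyte Itgal and Itgb2, was read by 2 probe sets made to 1 sequence record. D00913_g_at gave 2726 and 2703 in Mat-Lylu and 6305 and 5140 in G. All 4 arrays were above background and those of the lines did not overlap. The fall was 2.09-fold (log2 difference -1.06, SE 0.11, adjusted p = 0.00017). As a _g_at probe set, D00913_g_at can also pick up related transcripts.

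D00913_at gave 3732 and 3590 in Mat-Lylu and 4805 and 3906 in G. The Mat-Lylu arrays again lay below the G arrays, but the G arrays differed by 0.30 on the log2 scale and the log2 difference of -0.24 did not pass (SE 0.11, 95% interval -0.50 to 0.02, adjusted p = 0.14). Its size depended on the G array kept: without G replicate 1 it was -0.39 (adjusted p = 0.019), and without G replicate 0 it was -0.093 (adjusted p = 0.54). The log2 difference on D00913_g_at minus that on D00913_at was -0.82, with p = 0.333 in the exact permutation test, the smallest that 2 arrays against 2 can give.

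Endothelial markers were read beside Vcam1 and Icam1, as both are endothelial genes in inflamed tissue. Of 5 on the array, Pecam1 and Kdr were under background on every array, and the 5 signals summed to 15530 and 16275 in Mat-Lylu and to 16264 and 14319 in G. By the brightest probe set of each gene, 0 of the 4 tested passed in limma and 0 had an unadjusted p under 0.05. Over all 8 tested probe sets of these genes 1 passed, U02534_at of the nitric oxide synthase gene Nos3, at 4392 and 4558 in Mat-Lylu and 3205 and 3574 in G (log2 difference 0.40, adjusted p = 0.0098). Their part in the Vcam1 and Icam1 values was not tested.

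Alcam, the adhesion molecule that binds itself and Cd6, gave different answers on its 3 probe sets. AB008538_at read 3604 and 3546 in Mat-Lylu and 385 and 333 in G. Both G arrays were far under background, so the rise was at least 1.73-fold (log2 difference 3.26, SE 0.11, adjusted p = 3.8e-07, again with no exact size). X95850mRNA_at read 19003 and 16758 in Mat-Lylu and 18513 and 16374 in G, with overlapping arrays and a log2 difference of 0.04 (SE 0.11, 95% interval -0.22 to 0.29, adjusted p = 0.84).

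The third Alcam probe set, X95850mRNA_g_at, read 2149 and 2312 in Mat-Lylu and 1972 and 1710 in G. It was made to the same sequence record as X95850mRNA_at, yet its signals were far lower in both lines. As a _g_at probe set, X95850mRNA_g_at can also pick up related transcripts. The Mat-Lylu arrays were just above their background levels and the G arrays just below theirs, and the log2 difference of 0.28 did not pass (SE 0.10, adjusted p = 0.079). Without G replicate 0 it was 0.38 (adjusted p = 0.032), without G replicate 1 it was 0.18 (adjusted p = 0.29), and with signals floored at background it was 0.12 (adjusted p = 0.66). The probe set that was well above background in both lines thus showed no separation, and the one that was under background in G showed the call. Which of these sequences follows the Alcam transcript was not tested.

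Ncam1, the neural cell adhesion molecule, did not pass on either probe set. X06564_at read 2975 and 3117 in Mat-Lylu and 2705 and 3221 in G (log2 difference 0.04, SE 0.10, 95% interval -0.20 to 0.29, adjusted p = 0.79). The other, rc_AI137246_s_at, read 5160 and 5471 in Mat-Lylu and 4822 and 5193 in G (log2 difference 0.09, SE 0.09, 95% interval -0.11 to 0.29, adjusted p = 0.49). On both, the arrays of the lines overlapped and all 4 were above background.

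Nerve and glia markers were read beside Ncam1. Of 6 on the array, 5 were tested, and by the brightest probe set of each gene 0 passed in limma and 0 had an unadjusted p under 0.05. Over all 6 tested probe sets 1 passed, M25638_s_at of the neurofilament gene Nefl, at 2030 and 2101 in Mat-Lylu and 2678 and 2635 in G (log2 difference -0.36, adjusted p = 0.012). The 6 signals summed to 22238 and 23266 in Mat-Lylu and to 23638 and 22926 in G. Another neurofilament gene, Nefm, was under background on every array, and the part of these markers in the Ncam1 values was not tested.

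Of the 5 member genes with 2 or more tested probe sets, Icam1 and Alcam had a called probe set beside one that did not pass. Among all 1138 genes with 2 or more tested probe sets the share with such a mix was 30.7%. Itga7 and Vcam1 were called on every probe set and Ncam1 on none.

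**Figure D3:**
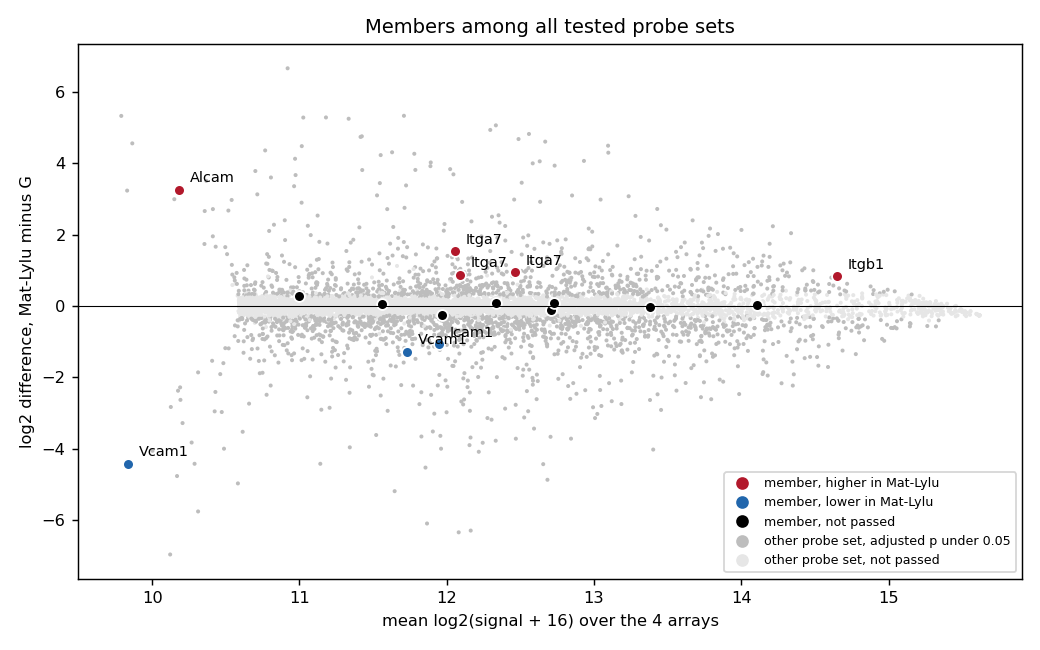
Log2 difference, Mat-Lylu minus G, against the mean of log2(signal + 16) over the 4 arrays for all 6555 tested probe sets (grey), with the 16 tested member probe sets in red (rose), blue (fell) or black (did not pass). The points at the far left are Vcam1 on M84488_at and Alcam on AB008538_at, which were under background in 1 line.

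Likeness was set against the member with the smallest p in the fit, Vcam1 on M84488_at, a rank that rests on signals under background; with signals floored at background, Itga7 on X65036_at had the smallest p. By the likeness of their pattern to M84488_at over the 4 arrays, the nearest genes were Ctsh, a lysosomal cathepsin, Robo2, an axon guidance receptor of the immunoglobulin family, and Mrpl40, of the mitochondrial ribosome. Of the tested genes, 293 had r above 0.99, which with 2 arrays a line reflects little more than the same direction and close duplicates. Their log2 differences were -3.61, -0.44 and -0.85.

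Other genes around the members were taken from lists set by gene family and role, with earlier results of these data known. Of 21 other integrin chains listed, 6 were on the array and 5 were tested, and in limma 0 passed and 0 had an unadjusted p under 0.05, beside 33.8% of all tested genes called, 14.1% higher and 19.7% lower. The alpha chain Itgav, of vitronectin receptors, read 2119 and 2398 in Mat-Lylu and 2180 and 2036 in G, with 3 of the 4 arrays above background, and its partner Itgb3 was under background on every array. Itga8 read 3932 and 3969 in Mat-Lylu and 3833 and 3631 in G, with a log2 difference of 0.08 (SE 0.08). The alpha chains Itga4, Itga6, Itgal and the beta chain Itgb2 pair with or bind the members. They were on the list, but no probe set was tied to their symbols alone.

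Of 16 tested matrix ligands of integrins, 3 rose, 5 fell and 8 did not pass, with a median log2 difference of 0.02 (over all tested genes, -0.02). As for the members, 1 line of some called list genes averaged under the filter's 1525, so these genes had to differ to be tested: 3 of the 8 called matrix ligands, 3 of the 14 called adaptors and partners and 2 of the 5 called immunoglobulin genes. The list counts are therefore a description. Osteopontin (Spp1), a ligand of Itgb1 and Itgav receptors, was 4.12-fold higher in Mat-Lylu at 41987 ± 361, against 10201 ± 705 in G (SD, n = 2 each). The collagen genes Col1a1 and Col1a2, whose product binds the Itga1 receptor, fell 16.2-fold and at least 14.2-fold. Fbln5, an elastic fibre protein that binds integrins, fell at least 1.81-fold. Laminin chains, ligands of the Itga7 and Itgb4 receptors, were chosen here after their values were seen. Lama3 was at least 1.68-fold higher and Lamb2 2.79-fold lower. Lamc1 (0.16), Lama5 (0.19), Lama1 (-0.16) and Lama2 (-0.05) had log2 differences that missed the threshold. Of these, Lama1 was under background on all 4 arrays and Lama2 on 1 array of each line.

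Of 20 adaptors, kinases and membrane partners of integrins, 7 rose, 7 fell and 6 did not pass; without Mat-Lylu replicate 1, 3 fell. The tetraspanin Cd151, a direct partner of laminin-binding integrins, was 2.87-fold higher in Mat-Lylu (20421 ± 1839, against 7108 ± 393 in G; SD, n = 2 each; adjusted p = 1.5e-05). The tetraspanin Cd9 and the caveolar protein Cav1 rose at least 7.32-fold and at least 13.4-fold, and the tetraspanin Cd81 fell at least 9.17-fold. The called cytoplasmic parts, named after their values were seen, were 4 higher and 3 lower. Paxillin (Pxn) was 2.53-fold, alpha-actinin 4 (Actn4) 1.99-fold, the small GTPase gene Rap1b 1.62-fold and talin (Tln1) 1.45-fold higher. The focal adhesion kinase gene Ptk2 was 2.03-fold, the adaptor Lims1 1.35-fold and tensin (Tns1) 1.20-fold lower. Tns1 lost its call in 7 of 14 alternative settings, among them each of the 4 arrays left out in turn. Its log2 difference ran from -0.30 to -0.21 over these settings. Lims1 lost its call when G replicate 0 (log2 difference -0.35) or Mat-Lylu replicate 1 (-0.32) was left out. For the kinase genes Src and Fyn the log2 differences, -0.06 and -0.23, missed the threshold.

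Of 18 tested other immunoglobulin family adhesion genes, 2 rose, 3 fell and 13 did not pass, with a median log2 difference of 0.00030. The poliovirus receptor homologue Pvr rose at least 1.82-fold and Cadm1, an epithelial and synaptic adhesion molecule, at least 1.15-fold. Thy1, a surface glycoprotein of fibroblasts and T cells, fell at least 4.96-fold and Nectin1, an adherens junction protein, 1.46-fold. With signals floored at background, Cadm1 lost its call (adjusted p = 0.36). Madcam1, the gut counter-receptor of the Itgb7 pair, read 8351 and 8562 in Mat-Lylu and 9535 and 8890 in G, a log2 difference of -0.12 that missed the threshold (SE 0.09, adjusted p = 0.32).

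**Figure D4:**
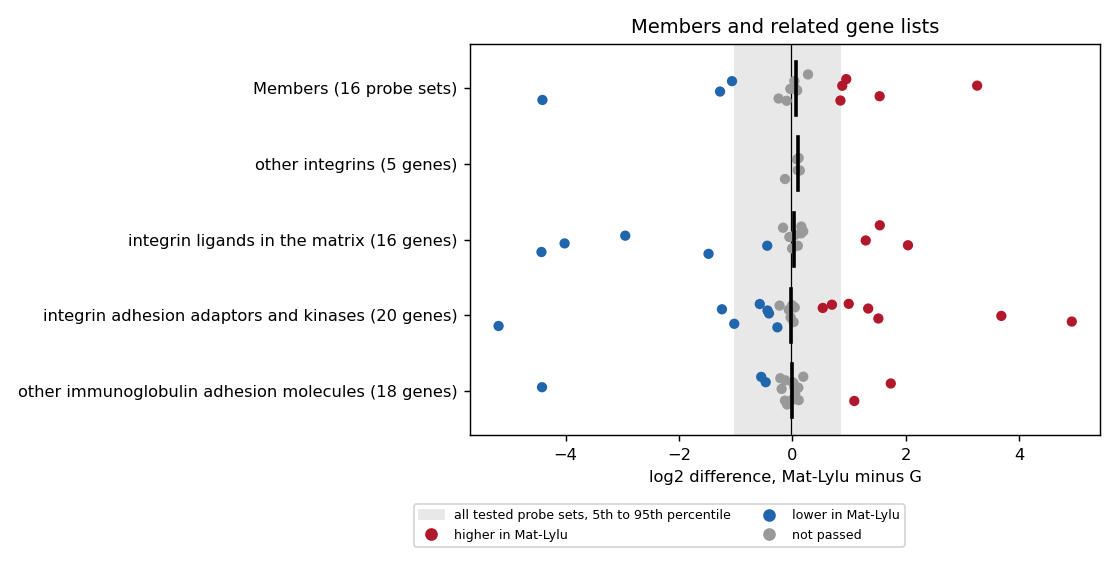
Log2 difference, Mat-Lylu minus G, of the member probe sets and of the tested genes of 4 related lists (1 point per gene, its brightest tested probe set); black bars are medians and the grey band spans the 5th to 95th percentile of all tested probe sets, -1.01 to 0.84. All 5 points of the other integrins lie inside the band.

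Prostate epithelial markers gave a mixed check of the labelled tissue. Of 7 on the array, Krt19, Krt14, Epcam and Pbsn were under background on all 4 arrays, Krt5 was above it on all 4 and did not pass, and Krt18 reached it on 1 G array only. Krt8 was the exception, at 41435 and 41521 in Mat-Lylu and 1978 and 1691 in G.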

How the data were processed

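The authors deposited 1 table of MAS5 signal intensities (software per the submitters' processing notes; version, scaling target and filters not given in the sources used here). Signals were used without further scaling, because the 2% trimmed means of the arrays differed by 7.83%, under a limit of 10%. Names came from the platform annotation, updated by gene identifier in the GRCr8 RefSeq table (6994 of 7018 probe sets with 1 symbol matched; 308 had several and 1473 none). The 59 array controls and the lowest 25% of the rest by mean signal were left out. The comparison used limma 3.58.1 in R 4.3.3 (lmFit, eBayes with intensity trend), 2-sided. Adjustment was by Benjamini-Hochberg over 6555 probe sets, with a threshold of 0.05. The fit was also run on simulated data with independent noise on each array. That run does not test the p-values where duplicates may be technical. Folds are 2 to the power of the difference in log2(signal + 16).

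Members and gene lists were chosen with earlier results of these data known. The text names all member probe sets, the 4 genes of each list with the smallest p among calls without overlap of the lines' arrays, and the 3 genes most like the member with the smallest p. Names outside this rule are partners by role or marked in the text. In lists, the brightest tested probe set stood for its gene.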

Additional observations from a re-analysis of the deposited data

How the results depend on the processing

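The alternatives were pseudocounts of 1 and 64, no filter, the lower 50% left out, quantile, median and cyclic loess scaling, no intensity trend, the replicate number as a block, a floor at the background level and each array left out in turn, where the lone array was assumed to vary like the other line. All 8 called member probe sets kept direction and call in every one of the 14 alternatives that tested them; leaving out the lower 50% removed Vcam1 on M84488_at and Alcam on AB008538_at from the test. With a floor at the background level the log2 differences of these 2 were -1.0 and 0.79. The counts of member probe sets ran from 4 to 6 higher and from 2 to 4 lower. Signs of uncalled members turned for Alcam on X95850mRNA_at (-0.053 without G replicate 1, -0.055 without Mat-Lylu replicate 0; range with 1 array left out -0.055 to 0.126), for Ncam1 on X06564_at (-0.081 without G replicate 0; range -0.081 to 0.170) and for Itgb7 on AF003598_at (0.028 with cyclic loess, 0.018 with median centring, 0.028 with quantile normalization, 0.0090 without Mat-Lylu replicate 0; range -0.079 to 0.0090). Alcam on X95850mRNA_g_at passed with median centring (adjusted p = 0.030) and quantile normalization (0.041). Of the lists, the adaptors that fell ranged from 3 to 6 when 1 array was left out, and the other immunoglobulin genes that rose numbered 1 with the floor and 0 with the lower 50% left out, which tests fewer genes. Of the 27 called list genes, 6 lost the call in at least 1 alternative and 0 turned direction. Replicate numbers are shared by the lines, but nothing in the labels pairs them; deviations of same-numbered arrays correlated at r = 0.16 over 6555 probe sets. With the replicate block, 967 probe sets rose and 1421 fell, against 908 and 1330 without it, and the members stayed at 5 and 3. Signals near the background level limit what can be said of Alcam and Vcam1 sizes.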
